A study of Mus musculus with 6 samples.

Results

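HSP90 and its co-chaperones are 10 genes here: the cytosolic chaperones Hsp90aa1 and Hsp90ab1, the mitochondrial form Trap1, and the co-chaperones Stip1, Fkbp4, Unc45a, Ahsa1, Ptges3, Chordc1 and Cdc37. They are 10 of the 54385 rows of the deposited table, and all 10 passed the filter on low counts that left 14332 genes for testing. They were listed by name with results of this same comparison known, and so in effect selected on their own fold changes between knockout and WT. Their differences are therefore given as a description, without p-values. PolyA RNA from mouse brown adipose tissue was sequenced in 6 libraries, 3 from ADCY3∆AT mice (Adcy3-AT knockout, called the knockout below) and 3 from wild-type (WT) mice. All mice were C57BL/6N, 20 weeks old and fed chow, so strain, age and diet were shared by both groups. Adcy3 encodes an adenylyl cyclase, an enzyme that makes cyclic AMP; the title of the series speaks of a truncated, cold-induced form of it. The sample labels call the tissue interscapular and the design text inguinal; the cells that carry the deletion, and the sex and housing of the mice, are not stated in these sources. Nothing states that replicates came from separate mice, so the spread between libraries may be technical.

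HSP90 is an abundant ATP-driven chaperone dimer that holds near-folded client proteins, above all steroid receptors and protein kinases. Co-chaperones steer its cycle: Stip1 links it to HSP70 and delivers clients, Cdc37 brings kinases, Ahsa1 speeds ATP hydrolysis, and Ptges3 (p23) holds the closed, ATP-bound state. Hsp90ab1 is known as the constitutive cytosolic form and Hsp90aa1 as the stress-inducible one. The transcription factor HSF1, itself held inactive by chaperones, drives many of these genes through heat shock elements, which are inverted repeats of the pentamer nGAAn.

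The end of the coding sequence separates the cytosolic forms from the mitochondrial one, because the cytosolic proteins end in the short tail onto which co-chaperones with a tetratricopeptide (TPR) domain, such as Stip1 and Fkbp4, dock. The last 30 coding bases, stop codon included, from GENCODE M21 (GRCm38) are shown for all 3 HSP90 genes, with the 15 bases before the stop codon in capitals. All 3 lie on the minus strand within 1 exon, at chr12:110691540-110691569 for Hsp90aa1, chr17:45568015-45568044 for Hsp90ab1 and chr16:4040123-4040152 for Trap1.
Hsp90aa1: gacacatcacgcATGGAAGAAGTAGACtaa
Hsp90ab1: gatgcctcgcgcATGGAAGAGGTGGATtaa
Trap1: cttttggtcaagGTCCTGGAGAAACACtga
The Hsp90aa1 and Hsp90ab1 stretches were identical at 23 of 30 bases, and at 12 of 15 in capitals. Trap1 matched each of them at 8 of 30 bases, with 6 of 15 capitals shared with Hsp90aa1 and 5 of 15 with Hsp90ab1.

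Promoter windows from RefSeq (GRCm38.p6; 250 bases before the start and 50 after it, 300 in all) were matched for 8 of the 10 genes, all but Hsp90aa1 and Hsp90ab1. They were searched for 2 heat shock element patterns, a pair (GAANNTTC or TTCNNGAA) and a triplet (GAANNTTCNNGAA or TTCNNGAANNTTC). Each pattern reads the same on both strands or has its reverse complement in the search, every triplet holds overlapping pairs, and overlapping matches were counted. The pair was found in 3 of 8 windows, against 15.1% of all 32851 windows, and the triplet in 1 of 8, against 0.603% of them. The 3 matching stretches are shown 5′ to 3′ on the gene's strand, with the matched run in capitals: chr9:18292259-18292288 (plus strand) for Chordc1, chr6:128438789-128438818 (minus) for Fkbp4 and chr9:21150086-21150115 (minus) for Cdc37.
Chordc1: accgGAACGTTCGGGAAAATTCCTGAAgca
Fkbp4: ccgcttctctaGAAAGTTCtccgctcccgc
Cdc37: tcggcgggaacTTCCAGAAggcctcaccac
The Chordc1 window held 5 pair and 3 triplet matches, and the triplets join into the run of 23 bases shown, across the RefSeq start. Fkbp4 and Cdc37 held 1 pair each. Of these 3 genes, Chordc1 and Fkbp4 were higher in the knockout and Cdc37 was not called different, as described below. Among the genes whose windows held no match, Stip1, Ahsa1 and Ptges3 were higher, and Trap1 and Unc45a were not called. A match in these windows says nothing about binding.

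Both cytosolic HSP90 genes were higher in the knockout, Hsp90aa1 3.94-fold and Hsp90ab1 2.53-fold, and mitochondrial Trap1 was not called different. Levels are CPM, with library totals scaled by TMM factors, and fold changes come from edgeR's quasi-likelihood fit over all tested genes. In bulk tissue, more cells of a type and more RNA per cell cannot be told apart. Hsp90aa1 (ENSMUSG00000021270, chr12:110690605-110702728, minus strand) had 339, 579.8 and 704 CPM in knockout replicates 1, 2 and 3, against 131, 129 and 151 CPM in WT replicates 1, 2 and 3. The lowest knockout library stood above the highest WT library, and the knockout libraries spread far more widely than the WT ones, with means of 541 ± 185 CPM in the knockout and 137 ± 11.9 CPM in WT (SD, n = 3 each). On the log2 scale the difference was 1.98 (SE 0.23, 95% interval 1.45 to 2.51) and it was 2.24 without knockout replicate 1 and 1.75 without knockout replicate 3.

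Hsp90ab1 (ENSMUSG00000023944, chr17:45567775-45573271, minus strand) was the most abundant of the 10 in every library. It had 1111, 1349 and 1652 CPM in the knockout, against 544, 509 and 570.2 CPM in WT, and the groups did not overlap. Its means were 1371 ± 271 CPM in the knockout and 541 ± 30.9 CPM in WT (SD, n = 3 each), with a log2 fold change of 1.34 (SE 0.13, 95% interval 1.03 to 1.65). The step between the groups was thus smaller in fold than that of Hsp90aa1 but larger in CPM.

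Trap1 (ENSMUSG00000005981, chr16:4039971-4077827, minus strand), the HSP90 of the mitochondrial matrix, had 275, 259 and 281 CPM in the knockout, against 263, 255 and 252 CPM in WT. The groups overlapped, since knockout replicate 2 lay below WT replicate 1. Its log2 fold change was 0.08 (SE 0.06, 95% interval -0.06 to 0.22).

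**Figure D1:**
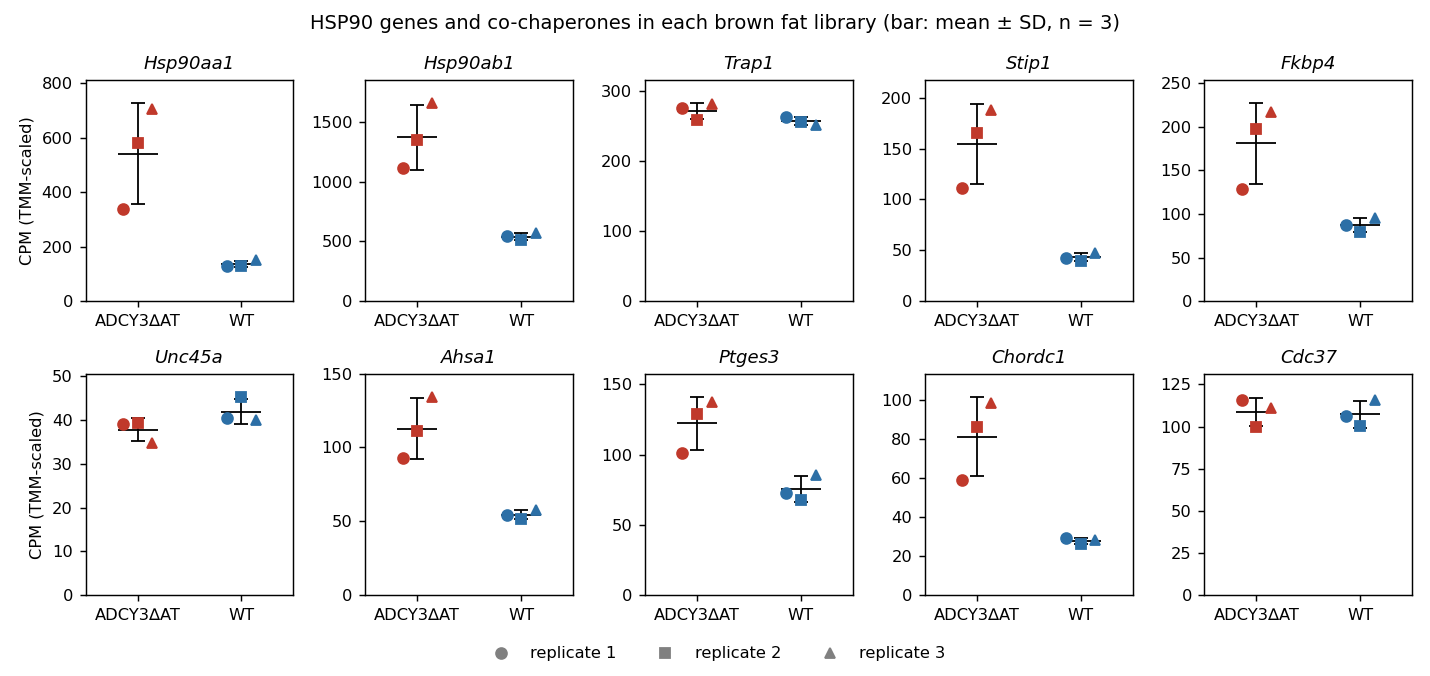
CPM (TMM-scaled, each vertical axis from 0) of the 10 genes in ADCY3∆AT libraries (red, left) and WT libraries (blue, right); symbols mark replicates 1 to 3, and black bars the mean ± SD (n = 3). In 7 genes every red point lies above every blue one; Trap1 and Cdc37 overlap, and in Unc45a the red points, 34.7 to 39.4 CPM, lie below the blue ones, 40.1 to 45.2 CPM.

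Among the co-chaperones that dock on HSP90 through TPR domains, Stip1 and Fkbp4 were higher in the knockout and Unc45a was not called. Stip1 (HOP; ENSMUSG00000024966, chr19:7020702-7039967, minus strand), the adaptor between HSP70 and HSP90, had 111, 165 and 188 CPM in the knockout, against 42.9, 39.4 and 47.6 CPM in WT. The groups were far apart, with means of 155 ± 39.3 CPM in the knockout and 43.3 ± 4.1 CPM in WT (SD, n = 3 each). Its log2 fold change of 1.84 (SE 0.18, 95% interval 1.42 to 2.25) was the next after that of Hsp90aa1 among the 10.

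Fkbp4 (FKBP52; ENSMUSG00000030357, chr6:128429735-128438677, minus strand), the immunophilin that works with steroid receptors, had 129, 197 and 217 CPM in the knockout, against 88, 79.5 and 95.5 CPM in WT. The groups did not overlap, but knockout replicate 1 lay closer to the WT libraries than to the other 2 knockout libraries. The means were 181 ± 45.8 CPM in the knockout and 87.7 ± 7.99 CPM in WT (SD, n = 3 each), with a log2 fold change of 1.04 (SE 0.18, 95% interval 0.64 to 1.45). The call was lost without knockout replicate 2 and without any 1 of the WT libraries, with estimates of 0.98 to 1.11.

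Unc45a (ENSMUSG00000030533, chr7:80325292-80341005, minus strand), a myosin chaperone that also binds HSP90, was the scarcest of the 10 in the knockout per length of exon. It had 39.1, 39.4 and 34.7 CPM in the knockout, against 40.4, 45.2 and 40.1 CPM in WT. All 3 knockout values lay below all 3 WT values, though by little at the nearest pair, and the gene was not called. The estimate on the log2 scale was -0.15 (SE 0.09, 95% interval -0.35 to 0.05).

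Of the 4 co-chaperones that bind HSP90 without a TPR domain, Ahsa1, Ptges3 and Chordc1 were higher in the knockout and Cdc37 was not called. Ahsa1 (AHA1; ENSMUSG00000021037, chr12:87266479-87273998, plus strand), the activator of the HSP90 ATPase, had 92.7, 111 and 134 CPM in the knockout, against 54.1, 51.7 and 57.8 CPM in WT. The WT values were close to each other, and every knockout value was well above them. The difference came to 1.05 on the log2 scale (SE 0.13, 95% interval 0.75 to 1.34).

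Ptges3 (p23; ENSMUSG00000071072, chr10:128058954-128077272, plus strand) showed the smallest of the called differences. It had 101, 129 and 137 CPM in the knockout, against 72.5, 67.8 and 85.6 CPM in WT, with a log2 fold change of 0.70 (SE 0.13, 95% interval 0.41 to 0.99). The groups did not overlap, although leaving out knockout replicate 2 or 3, or WT replicate 1 or 2, ended the call at estimates of 0.61 to 0.68.

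Chordc1 (CHP-1, also known as morgana; ENSMUSG00000001774, chr9:18292125-18317442, plus strand) is a co-chaperone with zinc-binding CHORD domains and carries the triplet heat shock element shown above. It had 59.3, 86.1 and 98.9 CPM in the knockout, against 29.1, 26.1 and 28.5 CPM in WT. The WT libraries were nearly level at 27.9 ± 1.6 CPM, whereas the knockout averaged 81.4 ± 20.2 CPM (SD, n = 3 each). Its log2 fold change was 1.54 (SE 0.17, 95% interval 1.15 to 1.94).

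Cdc37 (ENSMUSG00000019471, chr9:21133222-21149982, minus strand), which loads protein kinases onto HSP90, had 116, 99.7 and 111 CPM in the knockout, against 106, 100.1 and 116 CPM in WT. The groups covered almost the same range. The knockout minus WT difference was 0.02 on the log2 scale (SE 0.08, 95% interval -0.17 to 0.21), and its sign turned to -0.02 with upper-quartile scaling, without knockout replicate 1 and without WT replicate 2.

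In counts, 7 of the 10 genes were called higher in the knockout at an adjusted p under 0.05, beside 2.63% of all 14332 tested genes, and none was called lower, beside 1.67%; DESeq2 and limma-voom also called 7 higher and 0 lower, and no member was lower at an unadjusted p under 0.05. Libraries did not overlap in 8 of the 10, with 7 higher and 1 lower in the knockout, beside 15.1% and 13.9% of tested genes. The median log2 fold change was 1.05 over the 10 genes and -0.01 over all tested genes. Since the genes were listed with this contrast in view, these counts describe the list and nothing more is read from them.

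**Figure D2:**
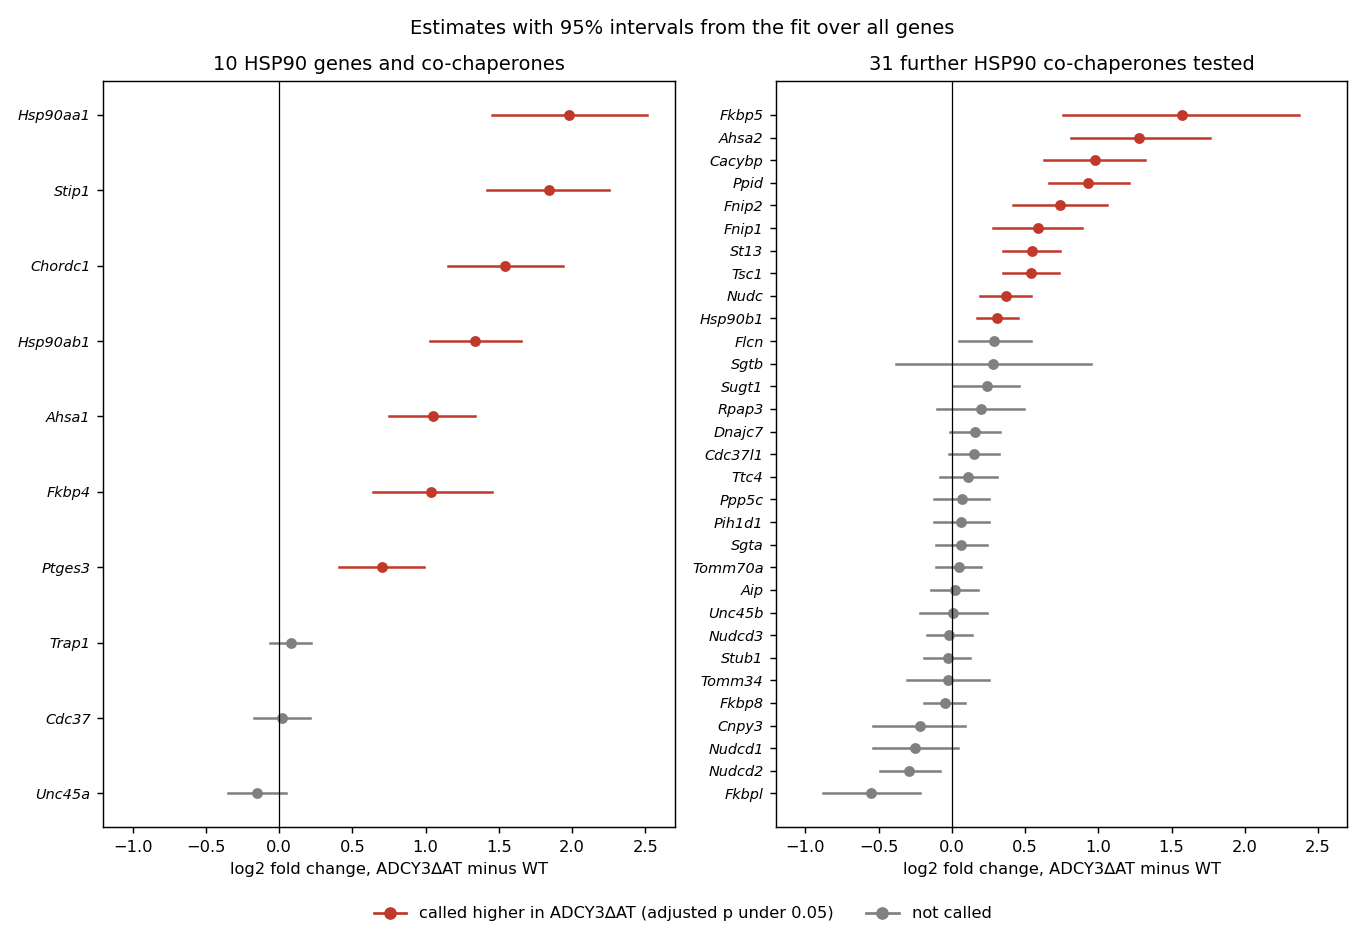
Log2 fold changes (ADCY3∆AT minus WT, horizontal axis) with 95% intervals for the 10 genes (left) and for 31 further HSP90 co-chaperones (right); red marks genes called higher in ADCY3∆AT and grey genes not called. On the left the estimates run from -0.15 for Unc45a to 1.98 for Hsp90aa1, and on the right 10 of 31 are red.

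The 7 higher genes also shared an order among the knockout libraries. In all 7, knockout replicate 1 was the lowest and replicate 3 the highest. This order was found in 24.9% of the 377 genes called higher in the knockout. It was found in 18.4% of the 14252 tested genes with a value above 0 in every knockout library. The highest knockout value was 2.07 times the lowest in Hsp90aa1, and 1.69 times in Stip1. It was 1.67 times in both Fkbp4 and Chordc1, 1.49 in Hsp90ab1, 1.45 in Ahsa1 and 1.35 in Ptges3. The 3 genes not called were flatter, at 1.16 in Cdc37, 1.13 in Unc45a and 1.08 in Trap1. Among the WT libraries the corresponding ratios were 1.04 to 1.26 over all 10 genes, so the wide spread belonged to the knockout side. Leaving out knockout replicate 1, the lowest library in each, was bound to raise the estimates of all 7 called genes, and did so. None of the 7 calls ended, which adds no separate evidence.

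Likeness to Hsp90aa1 was measured as the root mean square difference in log2(CPM + 0.5), each gene centred on its own mean over the 6 libraries, among 7670 tested genes with a full gene name and a mean of at least 10 CPM. The nearest 5 were Stip1 (0.11), the HSP40 partner Dnaja1 (0.14), the HSP110 gene Hspa4l (0.17), the collagen prolyl hydroxylase subunit P4ha2 (0.17) and Chordc1 (0.24). P4ha2, which is no chaperone, had 21.1, 26.1 and 31.9 CPM in the knockout, against 6.79, 5.69 and 6.88 CPM in WT. Hsp90ab1 ranked 10th (0.34), Fkbp4 25th (0.46), Ahsa1 27th (0.48) and Ptges3 58th (0.64). Trap1, Cdc37 and Unc45a stood at ranks 2716, 3835 and 6348. With 6 libraries in 2 groups, the measure follows the size of the group difference first and the order within the knockout next.

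**Figure D3:**
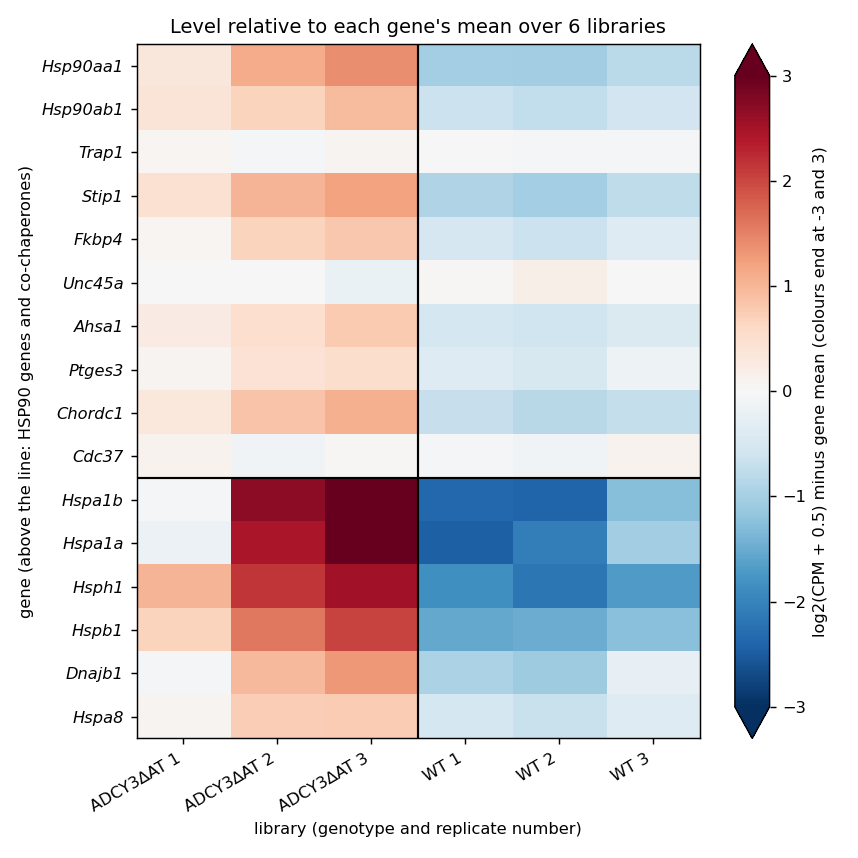
Log2(CPM + 0.5) minus each gene's mean over the 6 libraries (colour, ending at -3 and 3), for the 10 genes (above the line) and 6 heat shock genes (below it), with ADCY3∆AT libraries left and WT libraries right. The 7 higher genes are palest in ADCY3∆AT replicate 1 and darkest in replicate 3 among the ADCY3∆AT libraries, whereas Trap1, Unc45a and Cdc37 stay near 0 in all 6 libraries.

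Levels were compared between genes as CPM per kb of exon. In the knockout, Hsp90ab1 led with 457 ± 90.4 CPM per kb, followed by Hsp90aa1 with 138 ± 47.2 and Trap1 with 105 ± 4.3 CPM per kb (SD, n = 3). Hsp90aa1 and Trap1 overlapped there, since knockout replicate 1 had 86.3 CPM per kb of Hsp90aa1. In WT the order was Hsp90ab1 with 180.3 ± 10.3, Trap1 with 99.8 ± 2.14 and Hsp90aa1 with 34.9 ± 3.03 CPM per kb (SD, n = 3), with no overlap between these 3. Against 14321 tested genes with a length, Hsp90ab1 ranked 93rd in the knockout and 238th in WT, and Hsp90aa1 308th in the knockout and 1048th in WT. Trap1 held nearly the same place, 379th in the knockout and 401st in WT.

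Among the co-chaperones, Stip1 (73.4 ± 18.6), Fkbp4 (64.7 ± 16.4) and Ptges3 (55.2 ± 8.43 CPM per kb) were the most abundant in the knockout, and each overlapped the next. In WT, Ptges3 (34 ± 4.14) and Fkbp4 (31.4 ± 2.86) overlapped, and both lay above Stip1 (20.5 ± 1.95 CPM per kb). The low end was Ahsa1 (25.7 ± 4.73), Cdc37 (13.3 ± 1.03), Chordc1 (10.9 ± 2.69) and Unc45a (7.47 ± 0.519) in the knockout, and Cdc37 (13.1 ± 0.946), Ahsa1 (12.5 ± 0.703), Unc45a (8.29 ± 0.562) and Chordc1 (3.72 ± 0.213 CPM per kb) in WT. Cdc37 overlapped Chordc1 in the knockout and Ahsa1 in WT, and Chordc1 was thus above Unc45a in the knockout and below it in WT. Several places depended on the length used, above all that of Ahsa1. With its principal transcript in place of all exons it had 81.8 ± 15 CPM per kb in the knockout and 39.6 ± 2.23 in WT, and ranked 4th of the 10 in both groups. In the knockout, Stip1 (73.4) then fell to 6th behind Fkbp4 (81.6), and Chordc1 (14.1) passed Cdc37 (13.9 CPM per kb). In WT, Fkbp4 (39.5) passed Ptges3 (37.7 CPM per kb). Cdc37 was divided by the longest length of the 10 either way, 8194 or 7851 bases. The principal length is that of the longest principal transcript, so both lengths may understate the Cdc37 level, and its low place rests on them.

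The balance within the cytosolic pair differed between the groups. Hsp90aa1 made up 18.9%, 24.7% and 24.5% of the summed Hsp90aa1 and Hsp90ab1 RNA per kb in knockout replicates 1 to 3, against 15.6%, 16.2% and 16.8% in WT. The groups did not overlap; the means were 22.7% ± 3.3 in the knockout and 16.2% ± 0.611 in WT (SD, n = 3 each), 6.51 percentage points apart. Together the pair came to 457, 597 and 730.0 CPM per kb in the knockout, against 215, 202 and 229 CPM per kb in WT, a ratio of means of 2.76. The share follows from the fold changes above and adds no independent test.

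Set against 100 units of that cytosolic HSP90 RNA per kb, the co-chaperones showed 3 patterns. Stip1 outpaced that sum, with 11.6, 13.1 and 12.2 units in the knockout, against 9.48, 9.23 and 9.88 units in WT. Chordc1 kept step, with 1.73, 1.92 and 1.81 units in the knockout, against 1.81, 1.72 and 1.66 units in WT, and its groups overlapped. The others were lower relative to HSP90 in the knockout, also where their own level was higher. Ahsa1 had 4.2 to 4.64 units in the knockout, against 5.75 to 5.84 units in WT. Fkbp4 had 10.1 to 11.8 units in the knockout, against 14.1 to 15 units in WT. Ptges3 averaged 9.4 ± 0.822 units in the knockout and 15.7 ± 0.99 units in WT (SD, n = 3 each). These 3 were thus higher by less than the chaperone they serve. For the 2 co-chaperones whose own level was not called, Cdc37 had 1.86 to 3.1 units in the knockout, against 6.04 to 6.17 units in WT, and Unc45a had 0.941 to 1.7 units in the knockout, against 3.48 to 4.41 units in WT. The sum is mostly Hsp90ab1. Beside Hsp90aa1 alone, with a log2 fold change of 1.98, Stip1 (1.84) and Chordc1 (1.54) differed by less. These ratios follow from the fold changes above and add no independent test. They are ratios of RNA and not of protein.

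**Figure D4:**
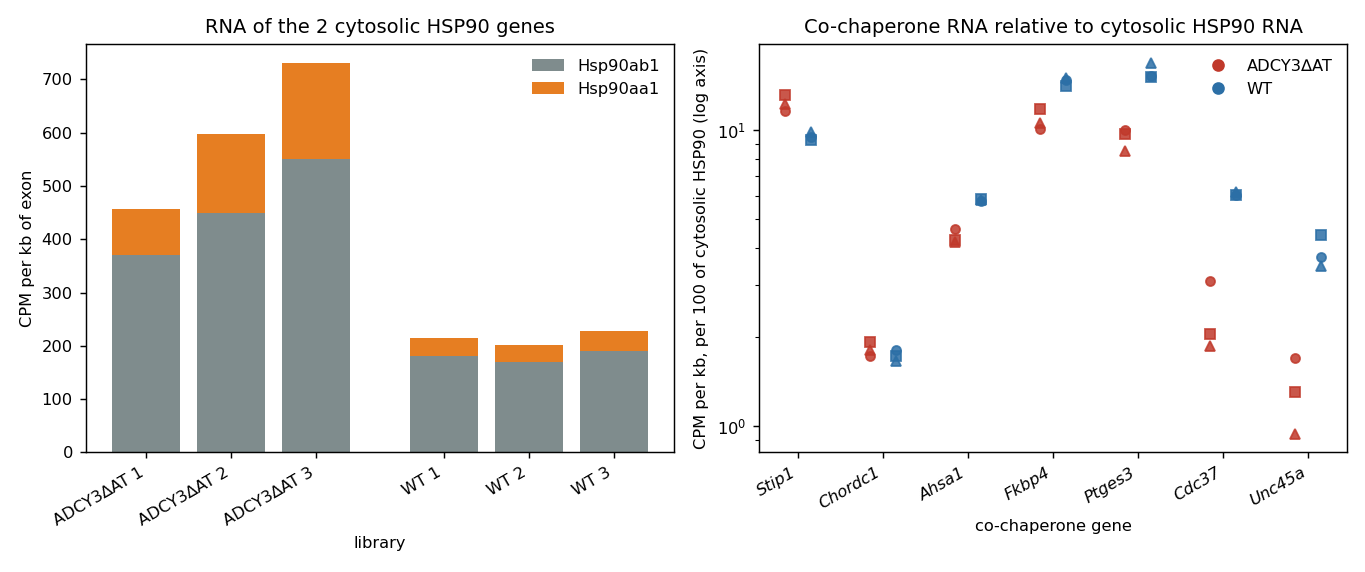
Left, CPM per kb of exon of Hsp90ab1 (grey) and Hsp90aa1 (orange) stacked for each library, ADCY3∆AT left and WT right; right, co-chaperone RNA per 100 of their sum (log axis), with ADCY3∆AT in red left of WT in blue and symbols for replicates 1 to 3. Stip1 is higher in ADCY3∆AT, Chordc1 overlaps, and the other 5 are lower.

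Beyond the 10 genes, 33 further HSP90 co-chaperones and regulators were listed, with the endoplasmic reticulum form Hsp90b1 among them, and 31 of them were tested. Of these, 10 rose in the knockout, none fell and 21 did not pass (edgeR's quasi-likelihood test, Benjamini-Hochberg adjusted over all genes), beside 2.63% of all tested genes called higher and 1.67% called lower. Their median log2 fold change was 0.15, beside -0.01 over all tested genes. This list and those below were drawn up with earlier results of these data known, so the counts and p-values are no independent test. For falls, edgeR gave 2 genes at an unadjusted p under 0.05, where no share of all genes was counted, and DESeq2 and limma-voom called 0. With no filter on low counts, edgeR called 11 of 33 higher and 1 lower, beside 1204 and 747 of all 34083 genes. The count of 10 was unstable. It dropped to 2 with knockout replicate 2 left out and to 6 with knockout replicate 3 left out. Leaving out WT replicate 1 gave 1, leaving out either of the other WT libraries gave 4, and upper-quartile scaling gave 6.

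The cyclophilin Ppid (CYP40), a TPR partner of HSP90 like Fkbp4, had 27.2, 30.3 and 31.6 CPM in the knockout, against 14.7, 13.7 and 18.2 CPM in WT (log2 fold change 0.93, SE 0.12, edgeR adjusted p = 0.00721). Cacybp, the calcyclin-binding protein, had 51.5, 74.5 and 78 CPM in the knockout, against 34.9, 32 and 36.6 CPM in WT (0.98, SE 0.15, edgeR adjusted p = 0.0141). St13 (HIP), which stabilises HSP70 bound to clients, had 175, 173 and 197 CPM in the knockout, against 117, 119.8 and 136 CPM in WT (0.55, SE 0.08, edgeR adjusted p = 0.0144). Tsc1, a partner of Tsc2 that also slows the HSP90 ATPase, had 23.3, 23.2 and 21.2 CPM in the knockout, against 15.1, 16.2 and 15.2 CPM in WT (0.54, SE 0.08, edgeR adjusted p = 0.0144). None of these 4 overlapped between groups. St13 and Tsc1 were nearly level across the knockout libraries, unlike the 7 genes above. The calls were lost for Cacybp without knockout replicate 2, WT replicate 1 or WT replicate 2, for St13 without WT replicate 1 or 2, and for Tsc1 without knockout replicate 2 or WT replicate 1.

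The other 6 that rose are named after their values were seen: Ahsa2, Fkbp5, Fnip2, Fnip1, Nudc and Hsp90b1. Ahsa2, the relative of Ahsa1, had 57.6, 86.8 and 112 CPM in the knockout, against 34.1, 34.3 and 36.8 CPM in WT (1.28, edgeR adjusted p = 0.0167), in the same knockout order as the 7. Fkbp5, the glucocorticoid-induced counterpart of Fkbp4, ran the other way, with 111, 47.4 and 49.8 CPM in the knockout, against 25.5, 15.7 and 28.6 CPM in WT (1.57, edgeR adjusted p = 0.0466). Knockout replicate 1, the lowest knockout library for Fkbp4, was thus the highest for Fkbp5. Hsp90b1 (GRP94), the HSP90 of the endoplasmic reticulum, had 172, 183 and 174 CPM in the knockout, against 138, 144 and 144 CPM in WT (0.31, edgeR adjusted p = 0.0331), between Trap1 and the cytosolic pair in fold. The folliculin-interacting proteins Fnip2 and Fnip1 and the nuclear movement factor Nudc had log2 fold changes of 0.74, 0.59 and 0.37. Of the 10 that rose, 3 had the order with knockout replicate 1 lowest and replicate 3 highest.

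The HSP70 machine that hands clients to HSP90, with heat shock factors and small heat shock proteins, was listed as 23 genes, all tested. Of them, 13 rose in the knockout, none fell and 10 did not pass (edgeR), beside 2.63% and 1.67% of all tested genes, with a median log2 fold change of 0.72. As earlier results of these data were known when this list was drawn up, its counts and p-values are no independent test. No gene of the list was lower at an unadjusted p under 0.05, and DESeq2 and limma-voom called 0 lower and 13 and 10 higher. All 13 had knockout replicate 1 lowest and replicate 3 highest, as the 7 HSP90 genes did. The HSP110 nucleotide exchange factor Hsph1 had 150.1, 325 and 424 CPM in the knockout, against 20.0, 16 and 22.3 CPM in WT (3.94, SE 0.36, edgeR adjusted p = 0.00235). Its relative Hspa4l differed by 2.00 on the log2 scale (SE 0.19, edgeR adjusted p = 0.00235), close to the 1.98 of Hsp90aa1. The small heat shock protein Hspb1 was at 2.96 (SE 0.31, edgeR adjusted p = 0.00378), and the J-domain gene Dnajb2 at 0.83 (SE 0.11, edgeR adjusted p = 0.00796).

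The constitutive HSP70 Hspa8, which Stip1 couples to HSP90, had 1251, 1958 and 2000.3 CPM in the knockout, against 820.2, 736 and 893 CPM in WT (1.09, SE 0.17, edgeR adjusted p = 0.015). Leaving out knockout replicate 2, WT replicate 1 or WT replicate 2 ended its call. The inducible pair Hspa1a and Hspa1b, near-identical copies whose reads may be split uncertainly, was at 4.16 (SE 0.80) and 4.51 (SE 0.80; edgeR adjusted p = 0.0301 and 0.0234), wider errors than any HSP90 gene. The HSP40 gene Dnajb1 was at 1.56 (SE 0.34, edgeR adjusted p = 0.0436). Hspa1a and Dnajb1 kept their calls without knockout replicate 1 and lost them without any 1 of the other libraries; with 1 library left out, Hspa1b kept its call only when that was knockout replicate 1 or 3. Neither limma-voom nor robust quasi-likelihood called any of these 3, and upper-quartile scaling ended the call of Dnajb1. Hsf1 itself had 25.9, 27.6 and 28.1 CPM in the knockout, against 19.8, 22.7 and 23.1 CPM in WT (0.31, SE 0.09, edgeR adjusted p = 0.0859), and did not pass. The count of 13 became 6 with knockout replicate 2 left out. It became 5, 6 and 8 with WT replicate 1, 2 and 3 left out, and 8 with robust quasi-likelihood.

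For the genes of HSP90's client proteins, the calls were near the background. Of 35 listed clients, 34 were tested, none rose, 1 fell and 33 did not pass (edgeR), beside 2.63% of all tested genes called higher and 1.67% lower, with a median log2 fold change of 0.04. At an unadjusted p under 0.05, 8 were higher, but no share of all genes was counted at that threshold. DESeq2 and limma-voom called 0 higher. With no filter on low counts 4 of 35 were called higher and 1 lower, beside 1204 and 747 of all 34083 genes. Without WT replicate 3 the single call was a higher one. The gene that fell was Ahr, the dioxin receptor held in the cytosol by HSP90 and p23, with 8.26, 9.23 and 10.1 CPM in the knockout, against 14, 13.7 and 13 CPM in WT (-0.56, SE 0.11, edgeR adjusted p = 0.0336). With 1 library left out, the call was kept only when that was knockout replicate 3.

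Around Trap1, 20 mitochondrial chaperones and proteases were tested and edgeR called none, which is near the 4.3% called over all tested genes, with a median log2 fold change of 0.05. At an unadjusted p under 0.05, 4 were higher and 0 lower, again with no share of all genes counted. DESeq2 called 2 higher, beside 603 of all 12660 genes given an adjusted p there, and limma-voom none. The smallest p belonged to the chaperonin pair: Hspd1 had 669, 738 and 806 CPM in the knockout, against 531, 547 and 622 CPM in WT (0.38, SE 0.09, edgeR adjusted p = 0.0592). Hspe1 had 185, 221 and 233 CPM in the knockout, against 146, 150.3 and 179 CPM in WT (0.43, SE 0.11, edgeR adjusted p = 0.0687). Both had larger estimates than Trap1, and neither passed in this fit. Hspd1 and Hspe1 did pass with DESeq2 (adjusted p = 0.00721 and 0.01), with no filter on low counts and without knockout replicate 1 (edgeR adjusted p = 0.0477 and 0.0353), and Hspd1 also with robust quasi-likelihood (edgeR adjusted p = 0.0464).

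Some of the 10 genes share sequence with other annotated genes. Of the 31-base words in Hsp90aa1 transcripts, 51.5% also occur elsewhere, 46.7% in the pseudogene Gm12346, but the table gave Gm12346 at most 0.658 CPM, or 0.456% of the sum of both. In Ptges3 the share was 20.9%, mostly with Ptges3-ps, which had 5.01, 3.32 and 3.09 CPM in the knockout, against 0, 3.1 and 0 CPM in WT, at most 4.71% of the sum. In Hsp90ab1 it was 13.2%, and in the other 7 genes 0.913% to 8.52%. How reads were shared out is therefore an uncertainty mainly for Hsp90aa1 and Ptges3. Trap1 shares 54 exon bases with Dnase1 on the opposite strand, and Ahsa1 76 with the miRNA gene Gm47293; the sources do not say if counting used strand.

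Libraries held 14799779 to 19592156 estimated counts in the knockout and 13758492 to 17489589 in WT, and the 10 genes ranged from 353 counts (Chordc1 in WT replicate 2) to 32643 counts (Hsp90ab1 in knockout replicate 3) in a library. The Adcy3 row did not separate the groups, with 167, 195 and 239.8 CPM in the knockout, against 248, 209 and 166 CPM in WT. A separate row, whose identifier ends in the same digits as that of Adcy3 and which the files do not name, had 1.27, 0 and 0 CPM in the knockout, against 215, 197 and 118 CPM in WT. Of all tested genes, 616 (4.3%) were called; 223, 304, 162, 293 and 253 were called without knockout replicate 2, knockout replicate 3, and WT replicates 1, 2 and 3. Brown adipocyte markers summed to 6734 to 7512 CPM in the knockout and 6546 to 8135 CPM in WT, with 0 of 7 called. The 10 skeletal muscle markers summed to 1.11 to 2.64 CPM in the knockout, each under 1 CPM in every library, and to 22.1, 108 and 651 CPM in WT replicates 1 to 3; 6 of 8 tested were called lower. WT values of the 10 HSP90 genes varied at most 1.26-fold over that range of muscle RNA; the part of muscle RNA in the differences was not tested. Of 3 tested white adipocyte markers, 1 was called lower (sums 27.8 to 63.5 CPM in the knockout and 40.1 to 119 CPM in WT). No tested marker was called for macrophages, lymphocytes (1 of 5 tested), endothelium, fibroblasts, Schwann cells or erythroid cells. Their sums in that order were 33 to 67.9, 1.77 to 2.46, 402 to 420.1, 141 to 208, 39.5 to 99.8 and 718 to 1362 CPM in the knockout. In WT they were 38.4 to 66.8, 2 to 2.71, 399.8 to 463, 155 to 224, 35.8 to 49 and 793 to 1699 CPM. In knockout replicates 1 to 3, macrophage sums (33, 58.3 and 67.9 CPM) and fibroblast sums (141, 179.7 and 208 CPM) had the order of the 7 HSP90 genes. Schwann cell, endothelial, white adipocyte and muscle sums were instead highest in replicate 1. Brown adipocyte and erythroid sums were lowest in replicate 1 and highest in replicate 2, and lymphocyte sums had neither order. Within the brown list, Ppargc1a, Dio2 and Prdm16 did have the order of the 7 genes. Their knockout values were 26.2, 41.2 and 47.9 CPM, 62.5, 111 and 132 CPM, and 20.3, 34.6 and 36.3 CPM, respectively. Ucp1, Cidea, Elovl3 and Cox8b were instead highest in replicate 2. The part of cell makeup in the order of the 7 genes was not tested. No marker was at 0 in all libraries.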

How the data were processed

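PolyA RNA of 3 ADCY3∆AT and 3 WT brown fat libraries was measured by paired-end sequencing. Estimated counts for each gene came as deposited by the authors in a single table (54385 rows, 54131 of them matched to a GENCODE M21 symbol); 38.0% of values above 0 were whole within 0.0005. GRCm38, StringTie, Salmon and edgeR are named, without versions or roles, per the submitters' processing notes. Columns were matched to samples through the number in each label.

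Estimated counts were rounded and fitted in R 4.3.3 with edgeR 4.0.16 (quasi-likelihood F test, two-sided, TMM, filterByExpr with a minimum count of 10 and total of 15, Benjamini-Hochberg over 14332 genes, called under 0.05). The code was tested on simulated data. DESeq2 1.42.0, limma 3.58.1 (voom), robust quasi-likelihood, other scalings and filters, a replicate block and leaving out each library were alternatives. P-values set the group difference against the spread between libraries only. CPM carry TMM factors; CPM per kb divide by the union of exons.

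The 10 genes and all lists were chosen with earlier results of these data known. Named were all 10 members, up to 4 called genes of smallest p per list (2 where none was called), the 5 genes most like Hsp90aa1, and Hspa1a, Hspa1b, Hsph1, Dnajb1, Hspa8 and Hsf1.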

Additional observations from a re-analysis of the deposited data

How the results depend on the processing

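Of the 10 HSP90 genes, Hsp90aa1, Hsp90ab1, Stip1, Chordc1 and Ahsa1 kept their direction and call under all 15 alternatives, with log2 fold changes of 1.75 to 2.24, 1.19 to 1.48, 1.67 to 2.03, 1.38 to 1.74 and 0.90 to 1.18. Fkbp4 (0.90 to 1.25) and Ptges3 (0.61 to 0.83) lost theirs only when single libraries were left out, so 5 to 7 of the 7 calls remained then. The 10 genes were listed with this contrast in view, so kept calls show dependence on processing and are no independent test. Trap1 (0.04 to 0.11) and Unc45a (-0.19 to -0.09) kept their sign and were never called. The sign of Cdc37 turned to -0.02 with upper-quartile scaling, without ADCY3∆AT replicate 1 and without WT replicate 2, a value smaller than its SE of 0.08; it lay between -0.02 and 0.09 when 1 library was left out. Over all tested genes, 616 calls became 1001 with DESeq2, 1951 with no filter on low counts, 324 with the replicate block and 162 to 461 when 1 library was left out. Further co-chaperones went to 6 calls with upper-quartile scaling, 6 with the block and 1 to 8 when 1 library was left out, and the HSP70 and heat shock list to 8 with robust quasi-likelihood and 5 to 14 when 1 was left out. Clients had 5 calls with no filter (4 higher, 1 lower), 0 with the block and 0 to 1 when 1 library was left out (1 higher without WT replicate 3), and mitochondrial genes 2 with DESeq2, 1 with robust quasi-likelihood, 2 with no filter, 1 with the block (Hspd1, edgeR adjusted p = 0.0485) and 0 to 2 when 1 was left out. The cause of these shifts was not tested; a left-out library also lowers the number of samples. The Hsp90aa1 share difference of 6.51 points was 7.56 with no length correction, 6.53 with principal transcripts and 5.52 to 8.41 when 1 library was left out; the last 2 kinds were added after seeing the data. Replicate numbers showed no sign of pairing the libraries. Same-numbered deviations correlated at -0.007, 0.007 and -0.045, and no ADCY3∆AT library correlated best with its own number. Such correlations cannot show that the libraries were unpaired by design. With the replicate block all 7 calls among the 10 genes remained. Of 390 log2 fold changes of named genes under alternatives, 334 kept direction and call, 45 lost a call, 8 gained one and 3 turned sign. They cover the members and the list genes named by rule, not Dnaja1, P4ha2 or genes named after their values were seen. Upper-quartile scaling moved the median of all genes by -0.04.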
